A study of Homo sapiens with 24 samples.

Results

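The genes described here are 44 members of the cellular response to low oxygen, of glycolysis and of lactate export, out of 34496 genes listed in at least 1 of the study's 6 tables. They were chosen by name from a list of hypoxia targets, glycolytic enzymes and lactate carriers, matched through their Ensembl identifiers, and the list was drawn up with earlier results of these data known. Messenger RNA was sequenced in 24 libraries of 4 human glioma lines, 3 per group. LN229-R and U87-R are the temozolomide-resistant counterparts of the glioblastoma lines LN229 and U87 MG. Each line received 50 µM STM2457, which inhibits METTL3, the enzyme that methylates adenosines in mRNA to m6A, or its solvent DMSO, for 96 h. The 8 groups are LN229-R with STM2457 and with DMSO, LN229 with STM2457 and with DMSO, U87-R with STM2457 and with DMSO, and U87 MG with STM2457 and with DMSO. The medium of LN229-R and U87-R also contained 50 µM temozolomide, an alkylating drug, and that of LN229 and U87 MG did not, so resistance and the presence of the drug cannot be told apart. Both LN229 lines grew in DMEM with 5% serum and added sodium pyruvate, and both U87 lines in EMEM with 10% serum, and the library kits differed as well, so background, medium and kit cannot be told apart. The labels name no clones and give no oxygen level.

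Hypoxia-inducible factors (HIFs) pair an oxygen-labile alpha subunit, HIF-1α from HIF1A or HIF-2α from EPAS1, with a stable beta subunit. When oxygen is plentiful, prolyl hydroxylases of the EGLN family mark the alpha subunit, and the VHL complex has it degraded. Stabilised HIF binds the core letters ACGTG or GCGTG and activates genes of glucose uptake, glycolysis, lactate export, pH control and blood vessel growth. Many gliomas ferment glucose to lactate even with oxygen present, and the hypoxic regions of glioblastoma strongly express several of these genes.

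Promoter letters of 6 members are shown first because these genes stand for the main patterns of response described below: CA9, SLC16A3 and ENO2 went in opposite directions in the LN229 and U87 lines, LDHA and PGK1 fell in the U87 lines and did not pass the test in the LN229 lines, and GAPDH fell in all 4 lines. These 6 were picked after their values were seen. Each window is from RefSeq (GRCh38.p14, plus strand, 5′ to 3′), runs from 250 bases before to 50 bases after an annotated start and so includes the start of the first exon. Capitals mark ACGTG read on either strand, where CACGTG is a palindrome that holds it on both strands. The windows lie at chr9:35673678-35673977 for CA9, chr17:82228792-82229091 for SLC16A3, chr12:6914330-6914629 for ENO2, chr11:18394313-18394612 for LDHA, chrX:78103998-78104297 for PGK1 and chr12:6535014-6535313 for GAPDH.
CA9: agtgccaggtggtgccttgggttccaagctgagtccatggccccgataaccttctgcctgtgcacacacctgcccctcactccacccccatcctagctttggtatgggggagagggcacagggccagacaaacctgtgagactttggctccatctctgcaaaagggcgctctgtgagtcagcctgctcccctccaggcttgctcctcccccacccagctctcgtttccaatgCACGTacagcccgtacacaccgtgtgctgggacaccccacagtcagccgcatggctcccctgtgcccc
SLC16A3: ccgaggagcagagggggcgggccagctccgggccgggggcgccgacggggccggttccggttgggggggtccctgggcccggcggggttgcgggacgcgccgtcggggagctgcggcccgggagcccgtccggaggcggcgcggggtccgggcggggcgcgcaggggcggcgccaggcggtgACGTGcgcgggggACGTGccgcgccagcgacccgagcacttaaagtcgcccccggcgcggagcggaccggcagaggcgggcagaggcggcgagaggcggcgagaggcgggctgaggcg
ENO2: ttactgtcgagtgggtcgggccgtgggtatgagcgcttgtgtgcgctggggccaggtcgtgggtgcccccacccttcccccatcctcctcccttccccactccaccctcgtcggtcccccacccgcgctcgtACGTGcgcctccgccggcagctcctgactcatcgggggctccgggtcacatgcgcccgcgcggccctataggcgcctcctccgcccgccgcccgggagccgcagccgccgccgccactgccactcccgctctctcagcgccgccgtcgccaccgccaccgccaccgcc
LDHA: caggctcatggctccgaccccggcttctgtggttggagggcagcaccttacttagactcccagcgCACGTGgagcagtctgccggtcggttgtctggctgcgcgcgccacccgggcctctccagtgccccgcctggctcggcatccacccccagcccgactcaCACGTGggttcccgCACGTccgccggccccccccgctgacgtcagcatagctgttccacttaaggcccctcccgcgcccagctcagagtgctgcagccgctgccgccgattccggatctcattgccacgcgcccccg
PGK1: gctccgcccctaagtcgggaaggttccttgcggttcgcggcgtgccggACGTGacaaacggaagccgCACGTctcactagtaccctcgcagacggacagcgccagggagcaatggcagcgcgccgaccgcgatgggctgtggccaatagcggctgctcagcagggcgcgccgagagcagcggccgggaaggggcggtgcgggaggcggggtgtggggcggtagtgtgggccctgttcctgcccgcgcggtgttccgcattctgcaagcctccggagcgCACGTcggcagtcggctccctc
GAPDH: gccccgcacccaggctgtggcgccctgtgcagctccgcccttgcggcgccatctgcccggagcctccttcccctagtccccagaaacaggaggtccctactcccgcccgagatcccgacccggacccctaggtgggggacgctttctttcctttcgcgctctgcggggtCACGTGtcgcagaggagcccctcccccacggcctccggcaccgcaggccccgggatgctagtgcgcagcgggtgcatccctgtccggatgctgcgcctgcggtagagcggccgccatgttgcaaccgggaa

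In CA9 the letters stand just before the start, read on the minus strand. SLC16A3 holds ACGTG at 2 places, although only 1 of its 5 annotated windows has it, and LDHA has matches in 1 of its 2 windows. ACGTG on either strand occurred in at least 1 window of 24 of the 38 members with a window (63.2%) and of 24.9% of all 27305 genes in the table. With GCGTG counted as well, the shares were 92.1% of members and 52.4% of all genes. These shares grow with the number of windows, which was 68 for the 38 members and 35116 for all 27305 genes. Per window, ACGTG occurred in 44.1% of member windows and 21.4% of all windows. With GCGTG counted as well, it was 70.6% and 48.4%. The median GC content was 68.3% in member windows and 58.7% in all windows, and its part in these shares was not tested. Members whose STM2457 response differed between LN229 and U87 MG held ACGTG in 62.5% of 24 genes, and the other members in 64.3% of 14 genes. These matches describe the windows and show no binding. The members were listed partly as hypoxia targets, so their higher shares are no independent evidence.

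The values are the authors' normalized counts, which are scaled within a table of 6 libraries. Levels in different tables are therefore set side by side and not compared. Differences are log2 changes on the scale of log2(value + 1), STM2457 over DMSO or resistant over parental, each with its standard error (SE) and an adjusted p from limma over all genes tested in that comparison. A gene rose or fell where the adjusted p was under 0.05 (3 libraries against 3). Normalized counts per library added up to between 24101400 and 28716600 for LN229 lines, and between 21232900 and 25349400 for U87 lines. Nothing in the labels says that replicates were separate cultures, so the p-values measure the spread between these libraries, which may be technical.

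Some libraries bear on all that follows. All 6 DMSO libraries of the LN229 family appear in the resistance table and again in the STM2457 tables, and each matched the same-numbered library with the other line's name (SD of the log2 ratio over genes 0.0579 to 0.0619, against 0.346 to 0.406 for the library of its own name). All 6 of the U87 family matched their own names. MGMT, the repair enzyme that removes temozolomide's lesions, had 0 normalized counts throughout the resistance table's LN229-R columns and 191 to 208 in its LN229 columns. It was at 165 to 190 with STM2457 and 188 to 205 with DMSO in the STM2457 table labelled LN229-R. Drug and control libraries of that table were thus alike in it. MGMT was not listed in the STM2457 table labelled LN229. In the U87 resistance table it was at 686 to 1228 in U87-R and 0 to 2.18 in U87 MG. Which LN229 library is resistant was not settled, and names are used as each table gives them. The resistant and parental pairs of an LN229 and a U87 line named below rest on these labels. Replicate 2 of LN229-R stood apart in both arms of its STM2457 table: its summed dividing-cell markers were 5224 with STM2457, against 17645 and 19634 in the other STM2457 libraries, and 17428 with DMSO, against 34042 and 35116 in the other DMSO libraries. STM2457 replicate 2 of LN229 stood apart as well, with a marker sum of 9493, against 16744 and 18758 in the other STM2457 libraries of LN229. In U87-R, replicate 3 was the highest of its arm for many members, as the values show.

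The glial and glioma markers VIM, CD44 and NES were present in all libraries, and GFAP was highest at 227, in DMSO replicate 2 of LN229. With STM2457, 1 of 7 glial and glioma markers tested rose and 2 fell in LN229-R, and 1 of 7 rose and 5 fell in LN229. Of all genes, 21.5% rose and 17.1% fell in LN229-R, and 26.2% rose and 23.6% fell in LN229. In U87-R, 0 of 4 tested passed, and in U87 MG 1 of 5 fell and 0 rose. SOX2 and S100B were at or near 0 or not listed in the U87 lines and present in the LN229 lines. PTPRC of leukocytes, EPCAM and KRT5 of epithelia and RBFOX3 of neurons were near 0 or not listed in the STM2457 tables. CD68, a lysosomal protein that also marks macrophages, was at 213 to 721 with STM2457 and 53.9 to 84.0 with DMSO in LN229-R, at 232 to 678 and 67.8 to 105 in LN229, at 11205 to 13878 and 9469 to 10909 in U87-R, and at 13151 to 20217 and 11662 to 14687 in U87 MG. Of 3 endothelial markers tested in LN229, 2 rose and 0 fell (median log2 change 1.53), where 26.2% of all genes rose. CDH5, 1 of the 3, was at 18.5 to 20.8 with STM2457 and 3.91 to 9.77 with DMSO there. In LN229-R, U87-R and U87 MG, 0 of the 1, 2 and 1 endothelial markers tested passed. METTL3 mRNA, the target of STM2457, did not pass the test in any comparison. Of 8 markers of dividing cells, 1 fell in LN229-R, 8 in LN229, 3 in U87-R and 3 in U87 MG. By replicate number, their sum was lower with STM2457 in every pair of LN229-R and of U87-R. The log2 changes of all 8 markers were negative in every line, with medians of -1.26 in LN229-R, -1.03 in LN229, -0.41 in U87-R and -0.55 in U87 MG. Their sum, with STM2457 against DMSO, was 5224 to 19634 against 17428 to 35116 in LN229-R, 9493 to 18758 against 26484 to 31972 in LN229, 18009 to 22721 against 21591 to 26032 in U87-R, and 19338 to 22810 against 24323 to 32510 in U87 MG, with overlap in LN229-R and U87-R. The share of mitochondrially encoded mRNA was 3.52 to 3.995% against 4.30 to 5.66% in LN229-R, 2.95 to 4.02% against 4.18 to 4.51% in LN229, 3.03 to 3.34% against 2.65 to 2.74% in U87-R, and 2.47 to 2.95% against 2.27 to 2.51% in U87 MG. The part of these in the changes below was not tested, and fewer expressing cells and less RNA per cell cannot be told apart in bulk RNA.

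With STM2457, most members that passed were higher in the LN229 lines and lower in the U87 lines. In LN229-R, 16 of the 42 members tested rose and 3 fell, where 21.5% of all genes rose and 17.1% fell. In LN229, 20 of 43 rose and 2 fell, where 26.2% of all genes rose and 23.6% fell. In U87-R, 36 of 44 fell and 0 rose, where 8.46% of all genes rose and 6.2% fell. In U87 MG, 24 of 44 fell and 0 rose, where 7.86% of all genes rose and 5.72% fell. These counts are from fits without a replicate block. Replicate numbers paired the libraries of LN229-R and U87-R. With the replicate as a block, 20 members rose and 4 fell in LN229-R, with 8444 of 17063 genes called. In U87-R, 0 rose and 40 fell with the block, with 4796 of 16185 genes called. U87 MG did not meet the pairing rule given below. There the block gave 2 rises and 35 falls, with 4137 of 16407 genes called. Values below are from the fits without the block unless stated.

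The median log2 change of the members tested was 0.281 in LN229-R, 0.28 in LN229, -0.79 in U87-R and -0.531 in U87 MG, beside medians of all genes between -0.0216 and -0.00305. CA12 and LOX were under the filter or not listed in LN229-R, and LOX in LN229. As a share of all normalized counts, the members took 1.01 to 1.38% with STM2457 and 1.29 to 1.50% with DMSO in LN229-R, and 1.19 to 1.40% against 1.30 to 1.38% in LN229. The share was 1.72 to 2.06% with STM2457 against 2.76 to 3.44% with DMSO in U87-R, and 1.63 to 2.05% against 2.49 to 2.93% in U87 MG. With STM2457 the share lay below the DMSO range in both U87 lines and overlapped it in both LN229 lines. This share weighs each member by its abundance, so abundant members such as GAPDH, which fell in every line, count most. Without STM2457 replicate 2 of LN229-R, 18 members rose and 2 fell there, and without its DMSO replicate 2, 14 rose and 2 fell. Without STM2457 replicate 2 of LN229, 17 of the 42 members then tested rose and 2 fell in LN229, with CA9 under the filter.

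**Figure D1:**
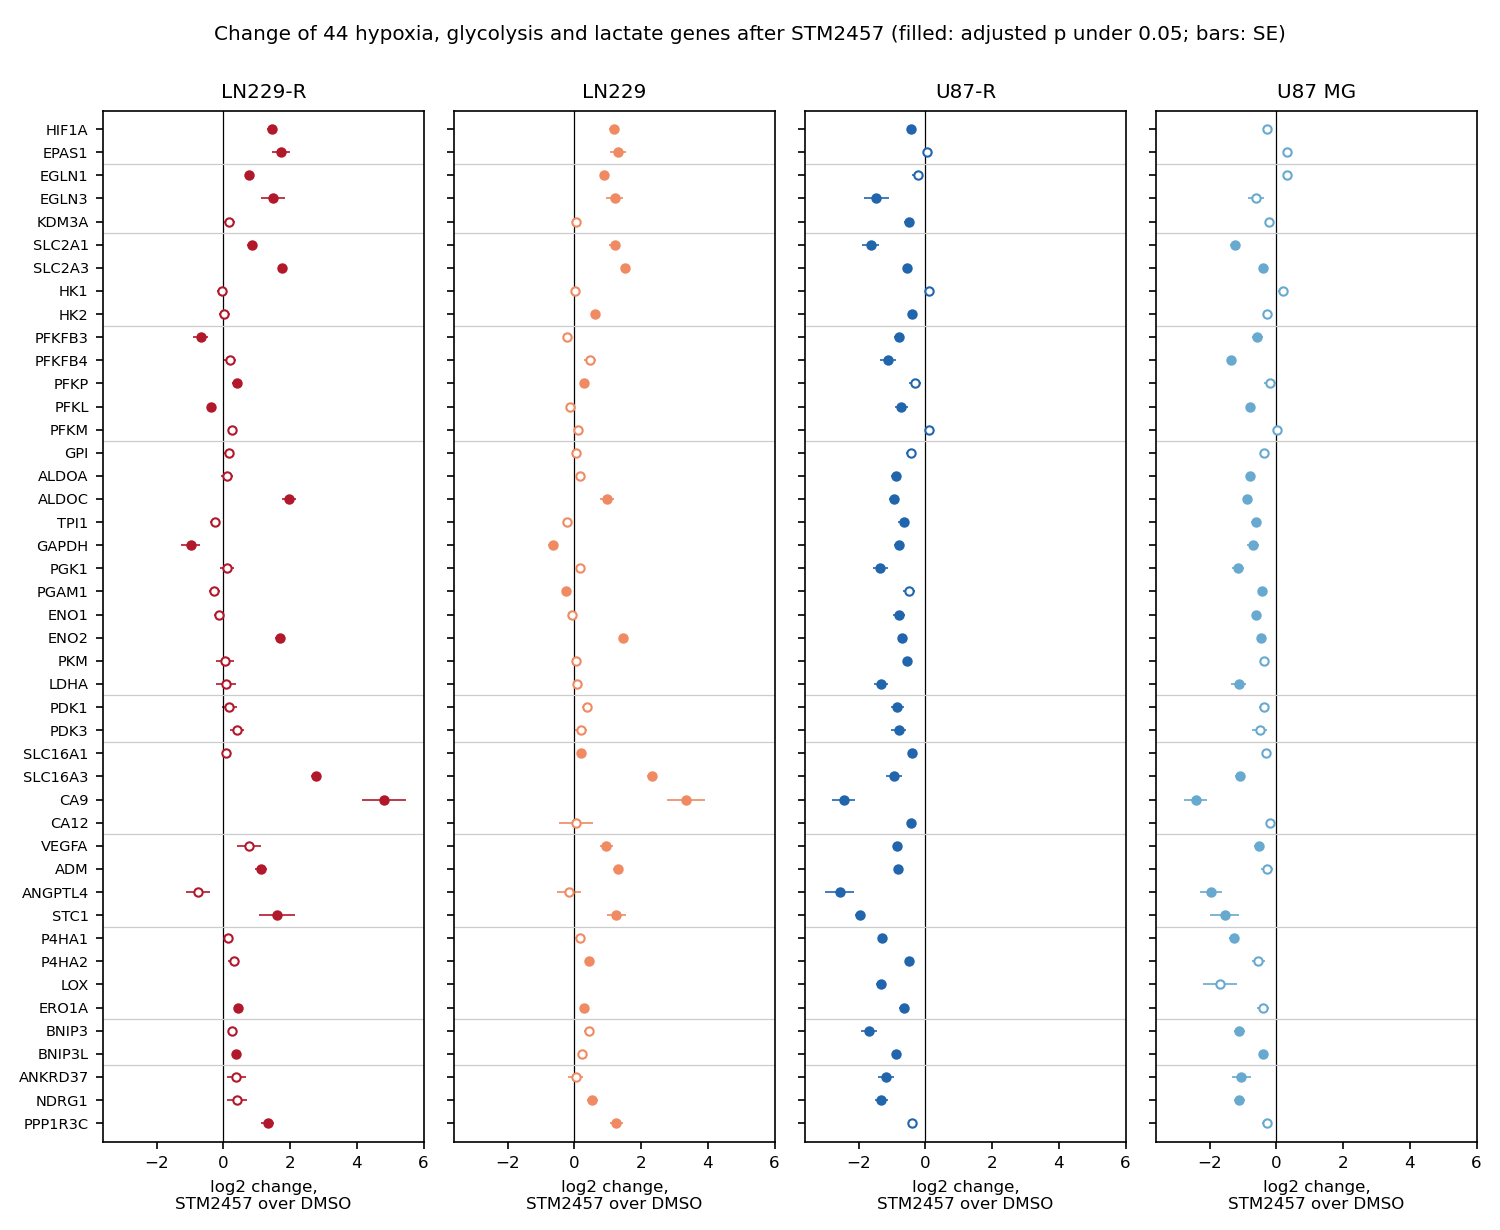
Log2 change (STM2457 over DMSO, horizontal axis) with its SE for each member (vertical axis, grouped by role) in LN229-R, LN229, U87-R and U87 MG; filled points passed the test and members not tested have no point. In these fits without a replicate block, points to the right of 0 prevail among those that passed in the LN229 lines (16 of 19 and 20 of 22). All that passed in the U87 lines lie to the left (36 and 24).

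The responses themselves differed between backgrounds for most members. The log2 change in LN229-R minus that in U87-R was higher than 0 for 27 of the 42 members tested and lower for 0 (9.5% and 4.91% of all genes). With the replicate block, which the pairing of both lines calls for, it was higher for 37 and lower for 0, with 3757 of 13759 genes called. In LN229 minus U87 MG it was higher for 30 of 43 and lower for 0 (11.6% and 7.26% of all genes). Without the block, the 25 members called in both pairs were 92.6% of the first set and 83.3% of the second. No difference passed between a resistant line and its parent. Between LN229-R and LN229, limma called 0 members and 0.00606% of all genes, with 3 members at an unadjusted p under 0.05. Between U87-R and U87 MG it called 0 members and 0 genes, also with 3 members at an unadjusted p under 0.05. Across members, the log2 changes of LN229-R and LN229 had a Pearson r of 0.96 (n = 42) and those of U87-R and U87 MG 0.921 (n = 44), whereas r was -0.235 (n = 42) between LN229-R and U87-R and -0.258 (n = 43) between LN229 and U87 MG. Spearman rank correlations were 0.903, 0.9, -0.115 and 0.00211 in the same order, so ranks were hardly related between backgrounds. These correlations describe genes that share libraries and are not tests. Neither they nor the overlap of 25 members was computed over all genes.

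**Figure D2:**
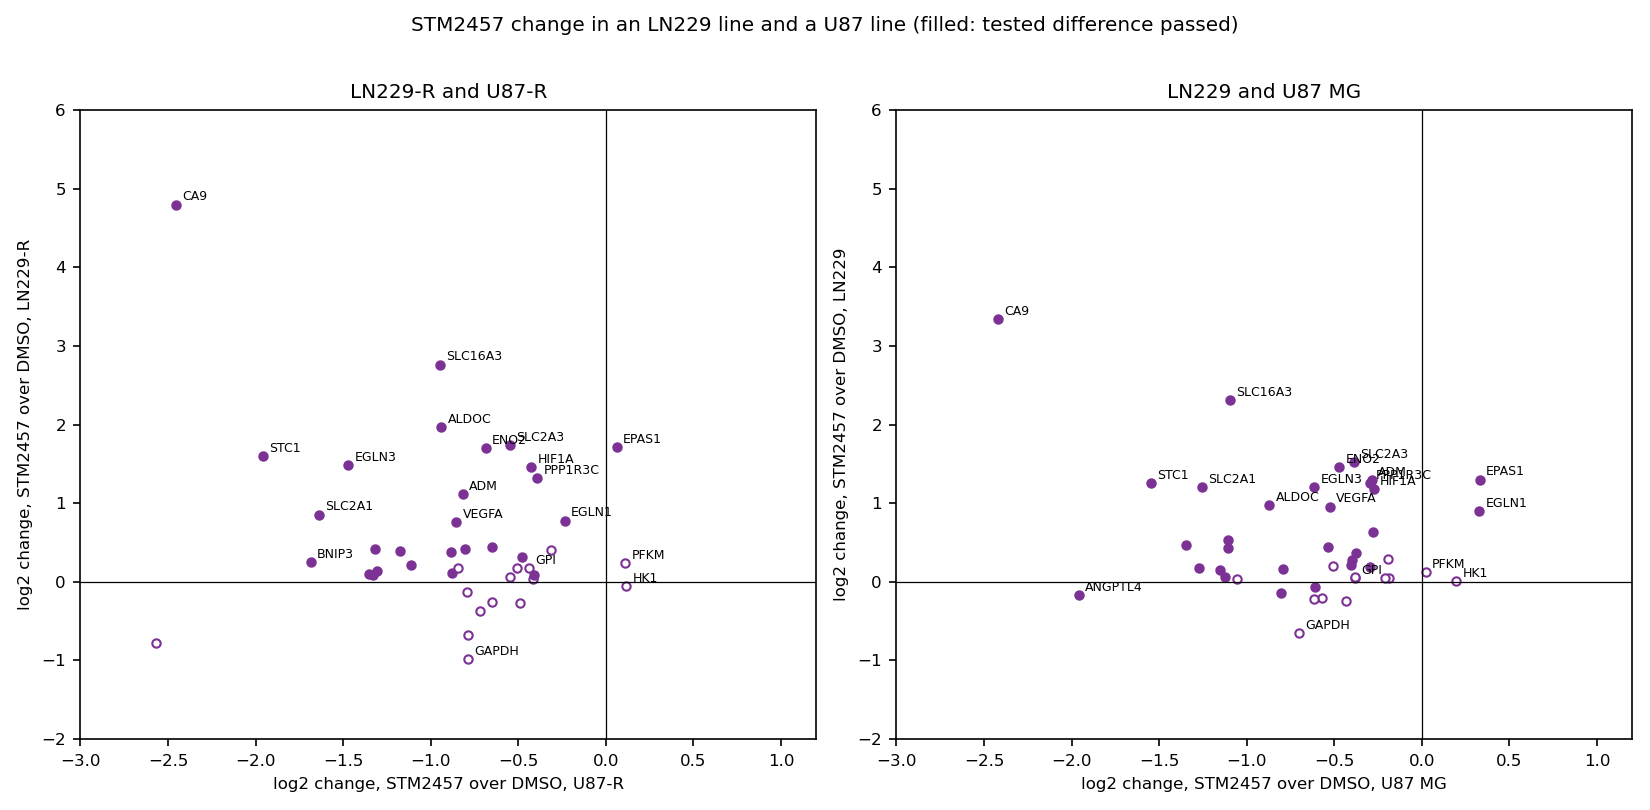
Log2 change with STM2457 in a U87 line (horizontal) and in an LN229 line (vertical), 1 point per member, for LN229-R with U87-R (left) and LN229 with U87 MG (right); filled points passed the test of the difference (27 and 30 members). CA9 and SLC16A3 lie highest at the upper left, LDHA and PGK1 lie left near the horizontal line, and GAPDH lies below 0 in all lines.

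ALDOC, CA9, ENO2, SLC16A3, SLC2A1, SLC2A3 and STC1, 7 in number, rose in both LN229 lines and fell in both U87 lines in the fits without a replicate block. In those fits GAPDH fell in all 4 lines, and GPI, HK1 and PFKM passed in no line. On leaving out single libraries, ALDOC, CA9 and SLC2A1 kept their calls in all 4 lines under every removal that could be fitted. ENO2, SLC16A3, SLC2A3, STC1 and GAPDH did not keep theirs in every line, as given below. With the block in the paired tables of LN229-R and U87-R, VEGFA and NDRG1 joined the 7, PGAM1 also fell in all 4 lines, and GPI passed in U87-R. Of the members that fell, 23 did so in both U87 lines (63.9% of those in U87-R and 95.8% of those in U87 MG). Of those that rose, 15 did so in both LN229 lines (93.8% of those in LN229-R and 75% of those in LN229). These overlaps are from the fits without the block. They were not computed over all genes, so they are not read as particular to the members.

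The mRNAs of both HIF alpha subunits rose in the LN229 lines. In LN229-R, HIF1A was at 24465, 21543 and 18335 normalized counts with STM2457 against 8579.6, 7247 and 7422 with DMSO (log2 change 1.46, SE 0.15, adjusted p = 0.000292). In LN229 it was at 19088, 23337 and 17989 with STM2457 against 10199, 8358 and 8040.4 with DMSO (log2 change 1.18, SE 0.13, adjusted p = 0.000235). The groups did not overlap in either line, and every STM2457 library was above all DMSO libraries. In U87-R, HIF1A fell, with 7202, 7022 and 7121 with STM2457 against 9280.3, 8919 and 10566 with DMSO (log2 change -0.43, SE 0.094, adjusted p = 0.0185), and its groups did not overlap. That call was lost without STM2457 replicates 1 or 2 or DMSO replicate 1, at an adjusted p of up to 0.0879. In U87 MG, HIF1A stood at 6121, 5624 and 5614 with STM2457 against 6787, 6472 and 7773 with DMSO (log2 change -0.27, SE 0.10, adjusted p = 0.104), without overlap but short of the threshold. The HIF1A response was higher in LN229-R than in U87-R by 1.89 (SE 0.17, adjusted p = 2.44e-05) and in LN229 than in U87 MG by 1.46 (SE 0.17, adjusted p = 0.000135).

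EPAS1, which encodes HIF-2α, had 3954, 2278 and 3113 normalized counts with STM2457 against 938, 1275 and 655 with DMSO in LN229-R (log2 change 1.72, SE 0.27, adjusted p = 0.0021). In LN229 it had 4879.8, 2671 and 3707 with STM2457 against 1962, 1219.7 and 1346 with DMSO (log2 change 1.30, SE 0.24, adjusted p = 0.00246). It thus rose in both lines with no overlap of groups. EPAS1 did not pass in the U87 lines. It had 16773, 17866 and 18516 with STM2457 against 16595, 15625 and 18799 with DMSO in U87-R (log2 change 0.06, SE 0.10, adjusted p = 0.718), where the groups overlapped. In U87 MG it had 20317, 22467 and 24299 with STM2457 against 16776, 17152 and 19344 with DMSO (log2 change 0.33, SE 0.11, adjusted p = 0.0745), all 3 STM2457 libraries being above the DMSO libraries. The difference was 1.66 (SE 0.31, adjusted p = 0.00385) for LN229-R minus U87-R and 0.97 (SE 0.29, adjusted p = 0.0328) for LN229 minus U87 MG. The second of these was lost without LN229 STM2457 replicates 1 or 3 or LN229 DMSO replicates 2 or 3 or U87 MG STM2457 replicates 1 or 2 or U87 MG DMSO replicates 2 or 3, at an adjusted p of up to 0.0812.

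The EGLN hydroxylases both mark HIF alpha subunits and are themselves hypoxia targets. EGLN3 was at 32.4, 49.8 and 41.4 normalized counts with STM2457 against 19.2, 10.4 and 13.2 with DMSO in LN229-R (log2 change 1.49, SE 0.35, adjusted p = 0.0127) and rose there. It rose in LN229 as well, at 68.2, 56.9 and 54.1 with STM2457 against 23.0, 21.7 and 31.8 with DMSO (log2 change 1.21, SE 0.26, adjusted p = 0.00517). The STM2457 libraries were the higher in both lines with no overlap. In U87-R, EGLN3 fell, at 173, 186 and 355 with STM2457 against 444, 502 and 1099 with DMSO (log2 change -1.47, SE 0.37, adjusted p = 0.0305), and replicate 3 was the highest in each arm. The call was lost without STM2457 replicates 1 or 2 or DMSO replicate 2, at an adjusted p of up to 0.112. In U87 MG its values were 70.7, 75.4 and 75.6 with STM2457 against 87.6, 117 and 144 with DMSO (log2 change -0.62, SE 0.24, adjusted p = 0.118), again without overlap. The EGLN3 difference between backgrounds was 2.96 (SE 0.54, adjusted p = 0.00291) for the resistant lines and 1.82 (SE 0.34, adjusted p = 0.00329) for the parental lines.

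EGLN1, the main HIF hydroxylase in most cells, separated drug from control libraries in the LN229 lines and not in the U87 lines. It had 4923, 4872 and 4993 normalized counts with STM2457 against 3152, 2633 and 2844 with DMSO in LN229-R (log2 change 0.78, SE 0.10, adjusted p = 0.00103). Its LN229 values were 3806, 4577 and 4105 with STM2457 against 2336, 2032 and 2309 with DMSO (log2 change 0.90, SE 0.10, adjusted p = 0.000194). EGLN1 rose in both, and its log2 changes of -0.23 in U87-R and 0.33 in U87 MG did not pass (adjusted p = 0.362 and 0.127). KDM3A, a histone demethylase induced by HIF, fell in U87-R (log2 change -0.51, SE 0.13, adjusted p = 0.0297) and did not pass in the other lines. That call was lost without STM2457 replicates 1, 2 or 3 or DMSO replicates 1 or 2, at an adjusted p of up to 0.102.

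Glucose enters glioma cells mainly through GLUT1 (SLC2A1) and GLUT3 (SLC2A3). SLC2A1 had 5021, 4203 and 5829 normalized counts with STM2457 against 3061, 2408 and 2814 with DMSO in LN229-R (log2 change 0.86, SE 0.15, adjusted p = 0.00333). It had 3760.2, 6023 and 4931 with STM2457 against 2192, 1849.6 and 2244 with DMSO in LN229 (log2 change 1.21, SE 0.16, adjusted p = 0.000611). Every STM2457 library of both lines was above every DMSO library. In U87-R, SLC2A1 was at 1403, 1259 and 2288 with STM2457 against 3901, 4640.2 and 6775 with DMSO (log2 change -1.64, SE 0.25, adjusted p = 0.00435). In U87 MG it was at 1379, 1909 and 1666 with STM2457 against 3676, 4071 and 3987 with DMSO (log2 change -1.26, SE 0.13, adjusted p = 0.00131). Here every STM2457 library was below every DMSO library, and replicate 3 was the highest of both arms in U87-R. The difference of the responses came to 2.50 (SE 0.33, adjusted p = 0.000317) for LN229-R minus U87-R and 2.46 (SE 0.22, adjusted p = 2.80e-05) for LN229 minus U87 MG.

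SLC2A3 followed the same order. Its values were 2600.1, 2198 and 2409 normalized counts with STM2457 against 756, 726 and 664 with DMSO in LN229-R (log2 change 1.75, SE 0.11, adjusted p = 5.31e-05). In LN229 they were 1974, 2056 and 1838 with STM2457 against 756, 616 and 667 with DMSO (log2 change 1.53, SE 0.10, adjusted p = 1.79e-05). The drug libraries stood well clear of the controls in both. SLC2A3 fell in U87-R, with 2344, 2587 and 2327 with STM2457 against 3429.6, 3720.4 and 3453 with DMSO (log2 change -0.55, SE 0.095, adjusted p = 0.00699). It fell in U87 MG with 2500.2, 2513 and 2812 with STM2457 against 3297, 3756 and 3199.9 with DMSO (log2 change -0.39, SE 0.10, adjusted p = 0.0375), a call lost without STM2457 replicates 1 or 2 or DMSO replicates 1 or 2, at an adjusted p of up to 0.139. Groups did not overlap in any of the 4 lines. Its difference between backgrounds was 2.29 (SE 0.14, adjusted p = 1.36e-06) for the resistant lines, the lowest adjusted p of any member there, and 1.92 (SE 0.14, adjusted p = 6.13e-06) for the parental lines.

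Hexokinases trap glucose in the cell as glucose 6-phosphate. HK2, the hypoxia-induced form, had 2084, 2009 and 1762 normalized counts with STM2457 against 2428, 1889.5 and 1504 with DMSO in LN229-R (log2 change 0.03, SE 0.17, adjusted p = 0.899), where the groups overlapped. It rose in LN229, at 2889.6, 3816 and 3083 with STM2457 against 2438, 1912 and 1967 with DMSO (log2 change 0.63, SE 0.13, adjusted p = 0.00488). It fell in U87-R, at 8080.0, 8054 and 8939 with STM2457 against 10389, 10744 and 12399.6 with DMSO (log2 change -0.42, SE 0.10, adjusted p = 0.0265), a call lost without STM2457 replicates 1 or 2 or DMSO replicate 2, at an adjusted p of up to 0.116. The groups did not overlap in either of these lines. In U87 MG its values were 8006, 9708 and 10216 with STM2457 against 10428, 12144 and 11239 with DMSO (log2 change -0.28, SE 0.12, adjusted p = 0.146). HK1, the constitutive form, had log2 changes between -0.05 in LN229-R and 0.20 in U87 MG and passed in no line.

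The phosphofructokinase step commits sugar to glycolysis, and PFKFB3 and PFKFB4 make and break its activator, fructose 2,6-bisphosphate. PFKFB4 had 407, 392 and 514 normalized counts with STM2457 against 412, 308 and 419 with DMSO in LN229-R (log2 change 0.21, SE 0.18, adjusted p = 0.382), with overlap. The LN229 values were 411, 568 and 364 with STM2457 against 319, 278 and 361 with DMSO (log2 change 0.47, SE 0.18, adjusted p = 0.0589), without overlap and short of the threshold. PFKFB4 fell in both U87 lines. The values were 1594, 1159.6 and 2144 with STM2457 against 2987, 2961 and 4544 with DMSO in U87-R (log2 change -1.11, SE 0.24, adjusted p = 0.0155), a call lost without STM2457 replicate 2, at an adjusted p of 0.0565. They were 1212, 1031 and 900.2 with STM2457 against 2653, 2974 and 2361 with DMSO in U87 MG (log2 change -1.35, SE 0.14, adjusted p = 0.00131), with SLC2A1 the lowest adjusted p of any member in that line. All STM2457 libraries were below all DMSO libraries in both. The difference was 1.32 (SE 0.32, adjusted p = 0.016) for LN229-R minus U87-R and 1.82 (SE 0.24, adjusted p = 0.000306) for LN229 minus U87 MG.

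PFKFB3 did not follow the rise in the LN229 lines. It fell in LN229-R by a log2 change of -0.68 (adjusted p = 0.0415), although its groups overlapped and the call was lost without STM2457 replicates 2 or 3 or DMSO replicates 1 or 3, at an adjusted p of up to 0.121. In U87-R it fell with log2 change -0.78, SE 0.15, adjusted p = 0.00919, and in U87 MG with log2 change -0.57, SE 0.16, adjusted p = 0.0455, the last lost without STM2457 replicates 1, 2 or 3 or DMSO replicates 2 or 3, at an adjusted p of up to 0.139. Of the phosphofructokinase subunits, PFKL, the liver form, had 3606, 4627 and 4547 normalized counts with STM2457 against 6905, 7428 and 7894 with DMSO in U87 MG (log2 change -0.81, SE 0.12, adjusted p = 0.00408) with no overlap. PFKL also fell in U87-R and LN229-R, at log2 changes of -0.72 and -0.37 (adjusted p = 0.0352 and 0.0281), and each call was lost on leaving out any of 5 libraries. PFKP, the platelet form, rose in LN229-R and LN229 by 0.40 and 0.29 (adjusted p = 0.0452 and 0.03), calls lost without 5 and 4 of the 6 libraries. With the replicate block, PFKP also passed in U87-R as a fall (-0.31, adjusted p = 0.00853). PFKM, the muscle form, did not pass in any line.

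Among the later glycolytic enzymes, the isoforms ALDOC and ENO2, typical of brain and neurons, rose in the LN229 lines, where the ubiquitous ALDOA and ENO1 did not pass, and all 4 fell in both U87 lines. The difference between isoforms was not tested. ALDOC, an aldolase, had 279, 223 and 261 normalized counts with STM2457 against 65.9, 74.4 and 52.8 with DMSO in LN229-R (log2 change 1.97, SE 0.21, adjusted p = 0.000379). Its values in LN229 were 292, 448 and 264 with STM2457 against 157, 159 and 179 with DMSO (log2 change 0.98, SE 0.20, adjusted p = 0.0046). Each STM2457 library was above each DMSO library in both lines. ALDOC fell to 1099, 1283 and 1463 with STM2457 in U87-R, against 2030.3, 2409.5 and 2981 with DMSO (log2 change -0.94, SE 0.16, adjusted p = 0.00671). The U87 MG values were 1042, 1127 and 1046 with STM2457 against 2038, 1897 and 1948 with DMSO (log2 change -0.87, SE 0.094, adjusted p = 0.00145). Neither U87 line had overlapping groups. The ALDOC difference was 2.91 (SE 0.26, adjusted p = 1.57e-05) in the resistant pair and 1.85 (SE 0.23, adjusted p = 0.000192) in the parental pair.

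ENO2, the neuron-typical enolase, was at 2326, 1593 and 1927 normalized counts with STM2457 against 575, 540.5 and 668 with DMSO in LN229-R (log2 change 1.70, SE 0.16, adjusted p = 0.000218). It was at 1957, 1873 and 1570.2 with STM2457 against 614, 662 and 671 with DMSO in LN229 (log2 change 1.47, SE 0.10, adjusted p = 2.73e-05). The rise was clear of the control range in both. SNAP25, a neuronal marker, fell in the same libraries, with log2 changes of -1.81 and -1.80 (adjusted p = 0.000113 and 6.50e-05). In U87-R, ENO2 was at 4848, 5289 and 5634 with STM2457 against 7824, 8049 and 9576 with DMSO (log2 change -0.69, SE 0.11, adjusted p = 0.00503). The values of U87 MG were 6216, 7874 and 6989 with STM2457 against 8648, 10914 and 9689 with DMSO (log2 change -0.47, SE 0.12, adjusted p = 0.0363), a fall whose call was lost without STM2457 replicates 1, 2 or 3 or DMSO replicates 2 or 3, at an adjusted p of up to 0.13. The groups were again apart in both U87 lines. ENO2 responses differed by 2.39 (SE 0.20, adjusted p = 1.15e-05) between LN229-R and U87-R and by 1.94 (SE 0.16, adjusted p = 1.60e-05) between LN229 and U87 MG. The ubiquitous ALDOA fell by log2 changes of -0.88 in U87-R and -0.79 in U87 MG (adjusted p = 0.00612 and 0.00514), and ENO1 by -0.79 and -0.61 (adjusted p = 0.0212 and 0.0206). Removing 2 and 3 single libraries ended the ENO1 calls. In LN229-R and LN229, ALDOA had log2 changes of 0.11 and 0.17 and ENO1 of -0.13 and -0.06, and neither passed.

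LDHA, the lactate dehydrogenase subunit that favours making lactate, had 28954, 14119 and 26228 normalized counts with STM2457 against 24546, 15771 and 23082 with DMSO in LN229-R (log2 change 0.09, SE 0.29, adjusted p = 0.834). Its low value with STM2457 and with DMSO was in replicate 2. In LN229 it had 24817, 25229.7 and 25969 with STM2457 against 25878, 22570.4 and 24210.3 with DMSO (log2 change 0.07, SE 0.10, adjusted p = 0.586). The groups overlapped in both. LDHA fell in U87-R, with 10651, 11210.0 and 16937 with STM2457 against 27863, 28730.0 and 40179.8 with DMSO (log2 change -1.33, SE 0.20, adjusted p = 0.00386). It fell in U87 MG, with 9138, 15119 and 17507 with STM2457 against 25899, 28287 and 34230.1 with DMSO (log2 change -1.12, SE 0.22, adjusted p = 0.0131). No STM2457 library of the U87 lines reached the DMSO range. The difference in LDHA response passed in both pairs, at 1.42 (SE 0.39, adjusted p = 0.0301) for LN229-R minus U87-R and 1.19 (SE 0.27, adjusted p = 0.00933) for LN229 minus U87 MG. The first was lost without LN229-R STM2457 replicates 1 or 3 or LN229-R DMSO replicate 2 or U87-R STM2457 replicates 1 or 2 or U87-R DMSO replicate 3, at an adjusted p of up to 0.073.

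PGK1, which makes ATP from 1,3-bisphosphoglycerate, showed the same split. It stood at 9426, 5557 and 7974 normalized counts with STM2457 against 7773, 5897 and 7310.3 with DMSO in LN229-R (log2 change 0.11, SE 0.20, adjusted p = 0.705). In LN229 it stood at 7874, 8305 and 6699 with STM2457 against 6606, 6723 and 7112 with DMSO (log2 change 0.16, SE 0.10, adjusted p = 0.212). Drug and control libraries overlapped in both. In U87-R, PGK1 was at 8199, 8503 and 12563 with STM2457 against 20493, 20371 and 34807 with DMSO (log2 change -1.35, SE 0.23, adjusted p = 0.00666). In U87 MG it was at 8037, 9719 and 11999 with STM2457 against 18741, 20458 and 26937 with DMSO (log2 change -1.15, SE 0.18, adjusted p = 0.00461). Both falls were free of overlap, and replicate 3 of U87-R was the highest in each arm. The difference in PGK1 response was 1.46 (SE 0.35, adjusted p = 0.014) in the resistant pair and 1.31 (SE 0.22, adjusted p = 0.00154) in the parental pair.

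GAPDH, the enzyme before PGK1 in the pathway, is given because it fell in all 4 lines without the block, a choice made after its values were seen. It was at 104214, 60506 and 102819.6 normalized counts with STM2457 against 162947, 171932 and 177549 with DMSO in LN229-R (log2 change -0.98, SE 0.29, adjusted p = 0.0292). In LN229 it was at 72093, 82357 and 68810.1 with STM2457 against 106688, 123635 and 119602 with DMSO (log2 change -0.65, SE 0.14, adjusted p = 0.00633). GAPDH was below all controls in every drug library of both lines. In U87-R it was at 72221, 76363 and 93145 with STM2457 against 122597, 128370.2 and 168027 with DMSO (log2 change -0.79, SE 0.15, adjusted p = 0.00967), and in U87 MG at 72447, 80599.6 and 98868 with STM2457 against 121898, 123444 and 164369 with DMSO (log2 change -0.70, SE 0.17, adjusted p = 0.0272). The calls were lost in LN229-R without STM2457 replicate 3 or DMSO replicates 1 or 3, at an adjusted p of up to 0.0936, in U87-R without STM2457 replicate 2, at an adjusted p of 0.0546, and in U87 MG without STM2457 replicates 1 or 2 or DMSO replicates 2 or 3, at an adjusted p of up to 0.102. No difference in GAPDH response passed, with 95% intervals of -0.92 to 0.54 for LN229-R minus U87-R and -0.46 to 0.56 for LN229 minus U87 MG.

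Calls among the remaining lower enzymes were fewer and smaller. TPI1, triose phosphate isomerase, fell by log2 changes of -0.65 in U87-R and -0.62 in U87 MG (adjusted p = 0.0319 and 0.0304), and its values of -0.26 in LN229-R and -0.21 in LN229 did not pass. PGAM1, a phosphoglycerate mutase, fell in LN229 by -0.25 and in U87 MG by -0.43 (adjusted p = 0.041 and 0.0463). With the replicate block, which the numbering of those lines calls for, PGAM1 also passed in LN229-R and U87-R, at adjusted p of 0.0446 and 0.00049. PKM, pyruvate kinase, passed in U87-R with a log2 change of -0.55 (adjusted p = 0.0222). GPI, which turns glucose 6-phosphate into fructose 6-phosphate, passed in no line, and in U87-R it passed with the block (log2 change -0.44, adjusted p = 0.00109). The calls of TPI1, PGAM1 and PKM each depended on single libraries: 5 and 4 removals ended those of TPI1 in U87-R and U87 MG, 5 each those of PGAM1, and 3 that of PKM.

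PDK1 and PDK3 keep pyruvate out of the mitochondrial cycle by inhibiting pyruvate dehydrogenase. Both fell in U87-R. PDK1 had a log2 change of -0.84 (adjusted p = 0.0197), lost without STM2457 replicate 2 or DMSO replicate 1, at an adjusted p of up to 0.0528. PDK3 had -0.80 (adjusted p = 0.0467), lost without 5 of the 6 libraries. In LN229-R, LN229 and U87 MG, neither passed, and PDK1 ranged between -0.38 in U87 MG and 0.36 in LN229. With the block PDK3 rose in LN229-R (log2 change 0.42, adjusted p = 0.0159).

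Lactate leaves the cell through monocarboxylate carriers, mainly MCT4, encoded by SLC16A3, while MCT1 (SLC16A1) carries it either way. SLC16A3 had the lowest adjusted p of any member in both LN229 lines. It was at 5663, 4559 and 5182 normalized counts with STM2457 against 719, 697 and 847 with DMSO in LN229-R (log2 change 2.76, SE 0.13, adjusted p = 2.05e-05). It was at 3410.2, 4574 and 3067 with STM2457 against 769, 676 and 743 with DMSO in LN229 (log2 change 2.32, SE 0.14, adjusted p = 1.50e-05). Every drug library was above every control library. SLC16A3 fell in the U87 lines. In U87-R it was at 1825, 2047 and 3432 with STM2457 against 3889, 3960.3 and 6003 with DMSO (log2 change -0.95, SE 0.25, adjusted p = 0.0338), a call lost without STM2457 replicates 1 or 2 or DMSO replicates 1, 2 or 3, at an adjusted p of up to 0.126. Its values in U87 MG were 1668, 2115 and 2328 with STM2457 against 3858, 4832 and 4315 with DMSO (log2 change -1.10, SE 0.14, adjusted p = 0.00267). Neither line showed overlap. The SLC16A3 difference between backgrounds was 3.71 (SE 0.31, adjusted p = 1.15e-05) for the resistant lines and 3.41 (SE 0.22, adjusted p = 2.81e-06) for the parental lines, which was the lowest adjusted p of any member in that pair.

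Changes of SLC16A1 were small. It had 3440.4, 4008 and 3780.0 normalized counts with STM2457 against 3805, 3318 and 3456 with DMSO in LN229-R (log2 change 0.09, SE 0.11, adjusted p = 0.558), with overlap. The values of LN229 were 2814, 2848 and 2789.6 with STM2457 against 2413, 2552 and 2438 with DMSO (log2 change 0.19, SE 0.070, adjusted p = 0.0486), a rise lost when any of the 6 libraries was left out, at an adjusted p of up to 0.148. Its groups there did not overlap. It fell in U87-R, with 2603, 2728 and 2921 with STM2457 against 3616, 3539 and 3819 with DMSO (log2 change -0.41, SE 0.093, adjusted p = 0.0202), a call lost without STM2457 replicates 1 or 2 or DMSO replicates 1 or 2, at an adjusted p of up to 0.0903. The U87 MG values were 2534, 2691 and 3078 with STM2457 against 3307, 3281 and 3594 with DMSO (log2 change -0.30, SE 0.10, adjusted p = 0.0882). The drug libraries of both U87 lines were the lower without overlap. The difference was 0.50 (SE 0.14, adjusted p = 0.0284) for LN229-R minus U87-R, lost without any of 9 of the 12 libraries, and 0.49 (SE 0.12, adjusted p = 0.0123) for LN229 minus U87 MG.

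CA9 and CA12 are carbonic anhydrases of the cell surface that handle the acid which glycolysis produces. CA9, a classical HIF target, was nearly silent in the LN229 controls. It had 43.3, 109 and 32.8 normalized counts with STM2457 against 0, 3.05 and 0.89 with DMSO in LN229-R (log2 change 4.80, SE 0.66, adjusted p = 0.00118). The LN229 values were 30.5, 44.8 and 13.5 with STM2457 against 0.81, 3.18 and 1.64 with DMSO (log2 change 3.35, SE 0.56, adjusted p = 0.00169). All drug libraries were above all controls, but the fitted change of a gene so near 0 depends on the pseudocount and bounds nothing: it was 5.33 and 3.26 with 0.5 and 5 added in LN229-R, and 3.63 and 2.23 in LN229. In the U87 lines CA9 was plentiful and fell. It had 1373, 1318 and 2745 with STM2457 against 7084, 7174 and 16057 with DMSO in U87-R (log2 change -2.45, SE 0.36, adjusted p = 0.00347). Its values in U87 MG were 771, 2017 and 1433 with STM2457 against 5375, 6320.5 and 10039 with DMSO (log2 change -2.42, SE 0.34, adjusted p = 0.00342). Neither pair overlapped. The differences in CA9 response, 7.25 (SE 0.76, adjusted p = 6.53e-05) for LN229-R minus U87-R and 5.76 (SE 0.64, adjusted p = 9.60e-05) for LN229 minus U87 MG, carry the same dependence on the pseudocount.

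CA12 was not tested in LN229-R. In LN229 it had 20.0, 6.55 and 12.9 normalized counts with STM2457 against 10.5, 7.65 and 19.1 with DMSO (log2 change 0.05, SE 0.51, adjusted p = 0.944), with overlap at a very low level. In U87-R it fell, with 9954, 9679.5 and 8511 with STM2457 against 12576, 12473 and 12708 with DMSO (log2 change -0.43, SE 0.092, adjusted p = 0.017). The groups were apart, and the call was lost without STM2457 replicate 2 or DMSO replicates 1 or 2, at an adjusted p of up to 0.0702. In U87 MG it had 13052, 14916 and 13614 with STM2457 against 14985, 15304 and 17149 with DMSO (log2 change -0.19, SE 0.10, adjusted p = 0.242), all 3 drug libraries being the lower.

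**Figure D3:**
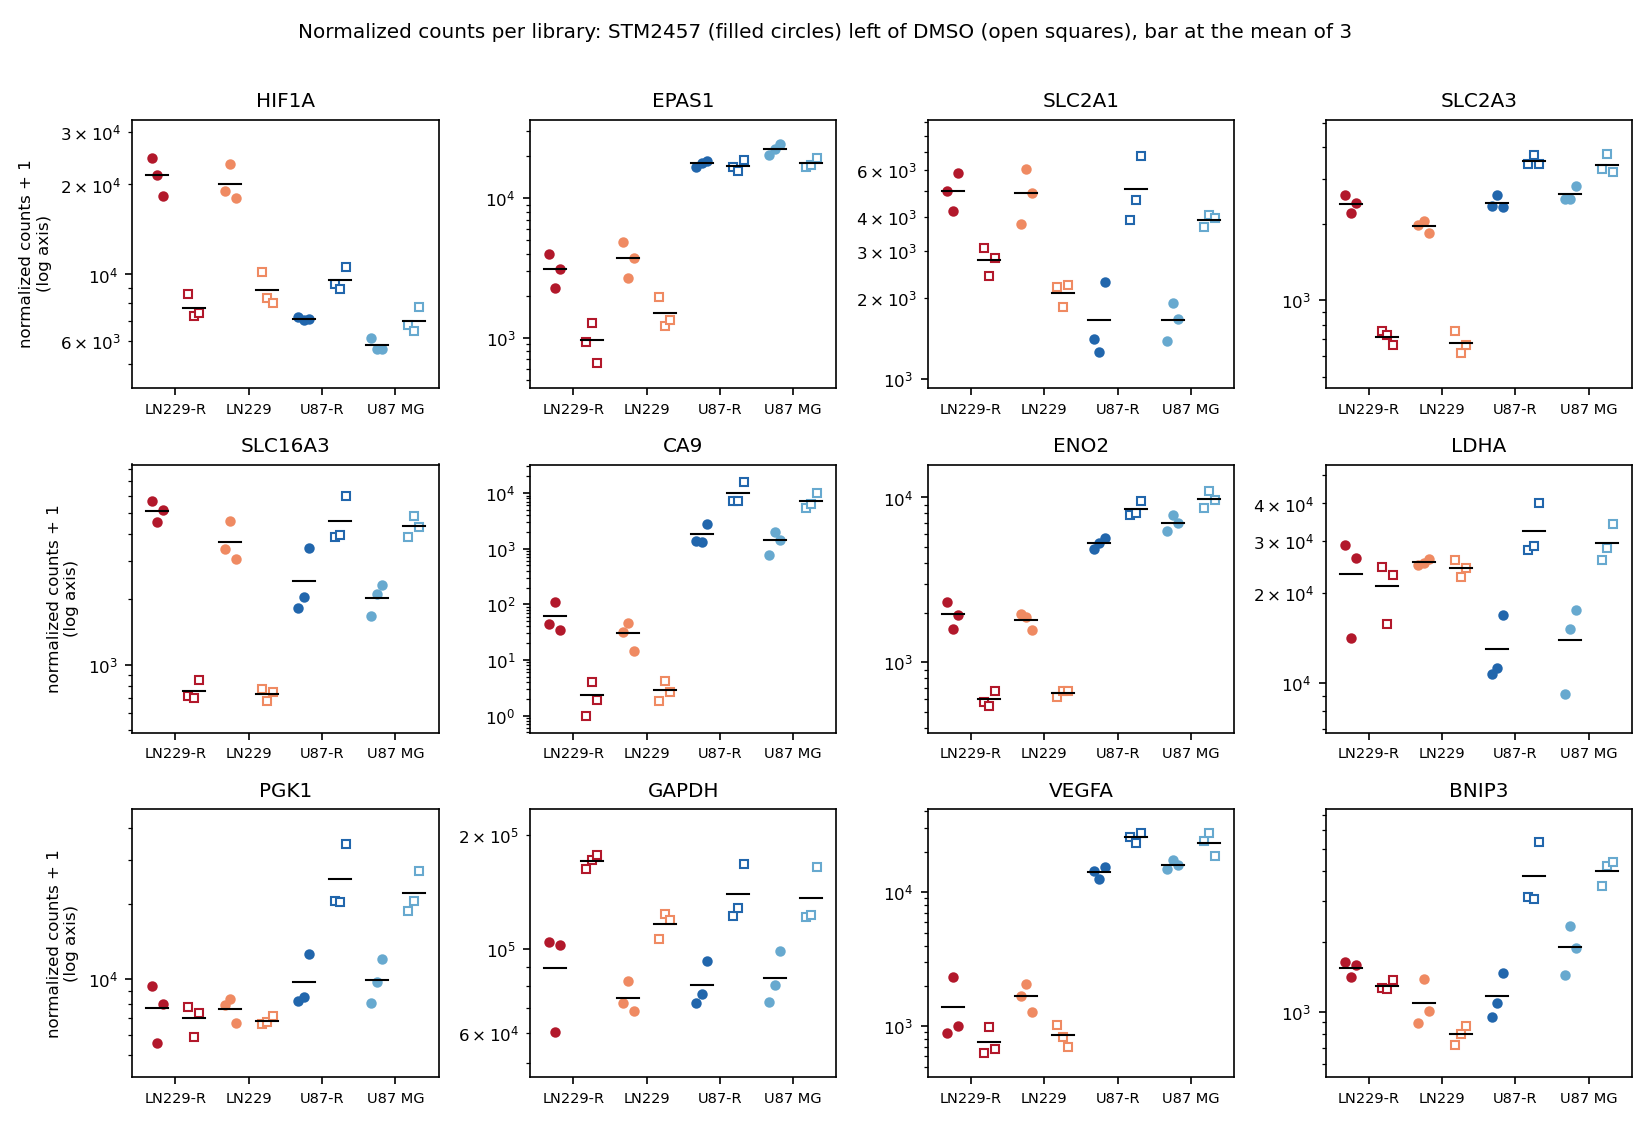
Normalized counts plus 1 (logarithmic axis) of 12 members in every library of the 4 lines, STM2457 (filled circles) left of DMSO (open squares), with a bar at the mean of 3; each line comes from its own table, so levels are compared within a line. HIF1A, EPAS1, SLC2A1, SLC2A3, SLC16A3, CA9 and ENO2 are higher with STM2457 in both LN229 lines, LDHA and PGK1 are lower in the U87 lines and overlap in the LN229 lines, and GAPDH is lower in all 4.

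Of the secreted factors, VEGFA drives blood vessel growth and ADM encodes a vasodilator peptide. VEGFA had 885, 2320.5 and 1005 normalized counts with STM2457 against 627, 992 and 675 with DMSO in LN229-R (log2 change 0.77, SE 0.35, adjusted p = 0.12), where the groups overlapped and replicate 2 was the highest of the drug libraries. With the replicate block it passed there, at an adjusted p of 0.0068. It rose in LN229, with 1670.0, 2061 and 1281 with STM2457 against 1028, 837 and 698 with DMSO (log2 change 0.96, SE 0.19, adjusted p = 0.00387). No overlap was seen in LN229. VEGFA fell in U87-R, with 14425, 12638 and 15438 with STM2457 against 25959, 23267 and 27489.7 with DMSO (log2 change -0.85, SE 0.11, adjusted p = 0.00208). It fell in U87 MG, with 14826, 17374 and 15911 with STM2457 against 23894, 27469 and 18581 with DMSO (log2 change -0.52, SE 0.15, adjusted p = 0.0467), a call lost without STM2457 replicates 1, 2 or 3 or DMSO replicates 1 or 2, at an adjusted p of up to 0.152. The VEGFA difference was 1.62 (SE 0.41, adjusted p = 0.0182) in the resistant pair and 1.48 (SE 0.26, adjusted p = 0.00218) in the parental pair.

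ADM rose in both LN229 lines. In LN229-R it had 837, 545 and 773 normalized counts with STM2457 against 333, 307 and 334 with DMSO (log2 change 1.12, SE 0.18, adjusted p = 0.00223), and in LN229 554, 676 and 507 with STM2457 against 239.7, 221 and 242 with DMSO (log2 change 1.29, SE 0.13, adjusted p = 0.000157). The drug libraries were the higher without overlap. It fell in U87-R, with 1783, 1649 and 1740.4 with STM2457 against 2712, 2740.1 and 3773 with DMSO (log2 change -0.82, SE 0.14, adjusted p = 0.00653). The values of U87 MG were 1950.0, 2844 and 2701 with STM2457 against 2489.7, 3078 and 3543 with DMSO (log2 change -0.29, SE 0.17, adjusted p = 0.306), with overlapping groups. The ADM difference was 1.94 (SE 0.23, adjusted p = 0.00016) for LN229-R minus U87-R and 1.58 (SE 0.23, adjusted p = 0.000625) for LN229 minus U87 MG.

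STC1, a secreted glycoprotein hormone, fell in U87-R with the lowest adjusted p of any member, at 2520.3, 2409 and 3588 normalized counts with STM2457 against 11065, 10777 and 10771 with DMSO (log2 change -1.96, SE 0.15, adjusted p = 0.000441). The groups were far apart. In U87 MG it fell with log2 change -1.55, SE 0.43, adjusted p = 0.0458, lost without STM2457 replicates 1 or 2 or DMSO replicates 2 or 3, at an adjusted p of up to 0.142. It rose in LN229-R with log2 change 1.60, SE 0.54, adjusted p = 0.0482 and in LN229 with log2 change 1.25, SE 0.28, adjusted p = 0.00649. The LN229-R groups overlapped, and that call was lost without STM2457 replicates 1 or 3 or DMSO replicates 1, 2 or 3, at an adjusted p of up to 0.141. ANGPTL4, which inhibits lipoprotein lipase, fell in U87-R by -2.57 and in U87 MG by -1.96 (adjusted p = 0.00623 and 0.00576). Its log2 changes of -0.77 in LN229-R and -0.17 in LN229 did not pass.

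Of the 4 genes of collagen making and protein folding, 4 fell in U87-R and 1, P4HA1, in U87 MG. P4HA1, a subunit of the collagen prolyl hydroxylase, had 1188, 1079 and 1302 normalized counts with STM2457 against 2867, 2727 and 3225 with DMSO in U87-R (log2 change -1.30, SE 0.11, adjusted p = 0.000594). The U87 MG values were 1114, 1239 and 1333 with STM2457 against 2494, 2751 and 3775 with DMSO (log2 change -1.27, SE 0.16, adjusted p = 0.00241). Groups were apart in both. Its log2 changes of 0.14 in LN229-R and 0.17 in LN229 did not pass, and the difference between backgrounds was 1.44 (SE 0.16, adjusted p = 0.000112) for the resistant pair and 1.44 (SE 0.24, adjusted p = 0.00153) for the parental pair. LOX, which cross-links collagen, fell in U87-R, with 1975, 2183 and 2422 with STM2457 against 4639.7, 5052 and 7070.1 with DMSO (log2 change -1.33, SE 0.16, adjusted p = 0.0017). In U87 MG its log2 change of -1.68 did not pass (adjusted p = 0.0599). P4HA2 rose in LN229 by 0.44 and fell in U87-R by -0.48 (adjusted p = 0.0185 and 0.0461), calls lost without 2 and 5 of 6 libraries. With the block P4HA2 also rose in LN229-R (0.31, adjusted p = 0.0205). ERO1A, an oxidase that helps form disulfide bonds, rose in LN229-R and LN229 by 0.45 and 0.28 (adjusted p = 0.011 and 0.0108). In U87-R it fell by -0.65 (adjusted p = 0.0194), lost without STM2457 replicates 1 or 2, at an adjusted p of up to 0.0718.

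BNIP3 and BNIP3L are receptors that mark mitochondria for removal. BNIP3 had 1631, 1403 and 1586 normalized counts with STM2457 against 1259, 1255 and 1367 with DMSO in LN229-R (log2 change 0.25, SE 0.11, adjusted p = 0.0985). The LN229 values were 891, 1382 and 1008 with STM2457 against 722, 805 and 868 with DMSO (log2 change 0.43, SE 0.16, adjusted p = 0.0516). Both lines had the drug libraries on top without overlap, and neither passed. BNIP3 fell in U87-R, with 944, 1092 and 1470.3 with STM2457 against 3112, 3038 and 5349.8 with DMSO (log2 change -1.69, SE 0.23, adjusted p = 0.00294). BNIP3 fell in U87 MG with 1443, 2341 and 1885 with STM2457 against 3452, 4236 and 4381 with DMSO (log2 change -1.11, SE 0.17, adjusted p = 0.00514). The drug libraries were the lower in both with no overlap. BNIP3 responses differed by 1.93 (SE 0.29, adjusted p = 0.000768) between LN229-R and U87-R and by 1.54 (SE 0.26, adjusted p = 0.00162) between LN229 and U87 MG. BNIP3L fell in U87-R, with 1647, 1602 and 1243 with STM2457 against 2904, 2796 and 2537 with DMSO (log2 change -0.88, SE 0.13, adjusted p = 0.00366). The fall was -0.40 in U87 MG and BNIP3L rose in LN229-R by 0.38 (adjusted p = 0.0485 and 0.0312), and those calls were lost without any of 6 and any of 4 libraries.

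NDRG1, a stress-responsive growth regulator, had 5357, 7271 and 5085 normalized counts with STM2457 against 3744, 7179.5 and 3074 with DMSO in LN229-R (log2 change 0.42, SE 0.30, adjusted p = 0.293), with overlap. With the block it passed there, at an adjusted p of 0.0453. It rose in LN229, with 5598, 8410.5 and 5799.7 with STM2457 against 4393, 5154 and 3946 with DMSO (log2 change 0.54, SE 0.17, adjusted p = 0.0264), a call lost without DMSO replicates 1 or 3, at an adjusted p of up to 0.0978. The LN229 groups did not overlap. NDRG1 fell in U87-R, with 6864, 6576 and 10217 with STM2457 against 17502, 16684 and 24607 with DMSO (log2 change -1.32, SE 0.20, adjusted p = 0.00385). It fell in U87 MG, with 5901, 9086 and 6484 with STM2457 against 15982, 15202 and 14339 with DMSO (log2 change -1.11, SE 0.15, adjusted p = 0.00333). The difference was 1.74 (SE 0.40, adjusted p = 0.0116) for the resistant pair and 1.65 (SE 0.25, adjusted p = 0.000803) for the parental pair.

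PPP1R3C, which directs a phosphatase to glycogen, rose in LN229-R, with 736, 498 and 621 normalized counts with STM2457 against 228, 279 and 227 with DMSO (log2 change 1.32, SE 0.18, adjusted p = 0.00116). In LN229 it rose with 624, 416 and 688 with STM2457 against 232, 205 and 275 with DMSO (log2 change 1.25, SE 0.20, adjusted p = 0.00137). Both rises were free of overlap. Its log2 changes of -0.39 in U87-R and -0.30 in U87 MG did not pass, and with the block it passed in U87-R (adjusted p = 0.0167). PPP1R3C responses differed by 1.71 (SE 0.22, adjusted p = 0.000267) between the resistant lines and 1.55 (SE 0.25, adjusted p = 0.00137) between the parental lines. ANKRD37, a HIF target, fell in U87-R by -1.17 and in U87 MG by -1.05 (adjusted p = 0.0127 and 0.0395), calls lost without 2 and 5 of 6 libraries.

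The second question was how the resistant lines differed from their parents without STM2457. These comparisons use the same DMSO libraries as the STM2457 comparisons. In U87-R against U87 MG, 4 of 44 members rose and 0 fell, where 3.13% of all genes rose and 1.15% fell, and the median log2 change was 0.203 over the members and -0.0137 over all genes. Without U87-R replicate 3 the members' median was 0.065. EGLN3 had 459, 521 and 1131 normalized counts in U87-R, against 84.2, 112 and 137 in U87 MG (log2 change 2.56, SE 0.33, adjusted p = 0.00399). ANGPTL4 had 671, 649 and 1634 in U87-R, against 385, 359 and 291 in U87 MG (log2 change 1.38, SE 0.32, adjusted p = 0.0498). Both were apart without overlap, with U87-R the higher. ERO1A had 2089, 2108 and 2709 in U87-R, against 1171, 1259 and 1646 in U87 MG (log2 change 0.77, SE 0.16, adjusted p = 0.0289). HIF1A had 9296, 8976 and 10544 in U87-R, against 6313, 6009 and 7187 in U87 MG (log2 change 0.56, SE 0.11, adjusted p = 0.0214). These too did not overlap. The EGLN3 call held on leaving out each library in turn. That of ANGPTL4 was lost without U87-R DMSO replicates 1 or 2 or U87 MG DMSO replicates 1, 2 or 3, at an adjusted p of up to 0.142. That of ERO1A was lost without U87-R DMSO replicates 1, 2 or 3 or U87 MG DMSO replicates 1 or 2, at an adjusted p of up to 0.124, and that of HIF1A without U87-R DMSO replicates 1, 2 or 3 or U87 MG DMSO replicates 1 or 2, at an adjusted p of up to 0.11. The number of members called was 1 without U87-R replicate 2 or U87 MG replicate 2, 2 without U87-R replicate 3, and 2, of which 1 fell, without U87 MG replicate 1.

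In the libraries labelled LN229-R against those labelled LN229, 2 of 41 members were higher and 5 lower, where 5.6% of all genes were higher and 3.65% lower. The direction rests on labels that the STM2457 tables contradict. The median log2 change was 0.0844 over the members and -0.00667 over all genes, and the members' median was 0.00121 without replicate 2 labelled LN229, 0.037 without replicate 1 labelled LN229-R and 0.0421 without replicate 3 labelled LN229-R. ALDOC had 166, 167 and 189 normalized counts in those labelled LN229-R, against 67.6, 76.0 and 54.0 in those labelled LN229 (log2 change 1.40, SE 0.18, adjusted p = 0.00358). STC1 had 167, 85.6 and 148 in those labelled LN229-R, against 37.8, 21.2 and 26.2 in those labelled LN229 (log2 change 2.18, SE 0.32, adjusted p = 0.00593). The 2 genes were the only members called higher, with no overlap and with calls that held on leaving out each library. Among members with lower values in the LN229-R columns was PDK1, with 458, 390.3 and 430.2 against 767, 555 and 648 in those labelled LN229 (log2 change -0.61, SE 0.14, adjusted p = 0.032). P4HA1 had 2491, 2678 and 2531 in the LN229-R columns, against 3678, 4157 and 3492 in the LN229 columns (log2 change -0.55, SE 0.089, adjusted p = 0.00873). Both were lower without overlap. BNIP3 had 802, 892 and 964 in those labelled LN229-R, against 1254, 1245 and 1358 in those labelled LN229 (log2 change -0.54, SE 0.10, adjusted p = 0.0139). SLC16A1 had 2671, 2816 and 2694 in those labelled LN229-R, against 3784, 3284 and 3427 in those labelled LN229 (log2 change -0.36, SE 0.083, adjusted p = 0.0343). ERO1A had 1880.0, 1897 and 1969.7 in those labelled LN229-R, against 2459, 2224 and 2442 in those labelled LN229 (log2 change -0.31, SE 0.079, adjusted p = 0.0482). All 5 were apart from the other group without overlap.

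These 5 calls each depended on single libraries: PDK1 was lost without LN229-R DMSO replicates 1, 2 or 3 or LN229 DMSO replicates 1 or 3, at an adjusted p of up to 0.122, P4HA1 without LN229-R DMSO replicates 1 or 3, at an adjusted p of up to 0.0569, BNIP3 without LN229-R DMSO replicates 1 or 2 or LN229 DMSO replicate 3, at an adjusted p of up to 0.0633, SLC16A1 without LN229-R DMSO replicates 1, 2 or 3 or LN229 DMSO replicates 1 or 3, at an adjusted p of up to 0.147, and ERO1A without LN229-R DMSO replicates 1, 2 or 3 or LN229 DMSO replicates 1 or 3, at an adjusted p of up to 0.165. Replicate numbers paired these libraries, and with the block 5 members were higher and 9 lower. The additional calls were higher values of ALDOA, EPAS1 and HIF1A and lower values of EGLN1, P4HA2, PFKFB3 and SLC2A1 (adjusted p = 0.0249, 0.048, 0.0186, 0.0475, 0.036, 0.0103 and 0.0428). Leaving out replicate 2 labelled LN229, the library with 17149.5 summed dividing-cell markers, gave 6 higher and 9 lower members. Without replicates 1, 2 or 3 labelled LN229-R, 2 were higher in each case and 0, 1 and 1 lower, and without replicates 1 or 3 labelled LN229, 2 were higher and 2 and 1 lower.

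**Figure D4:**
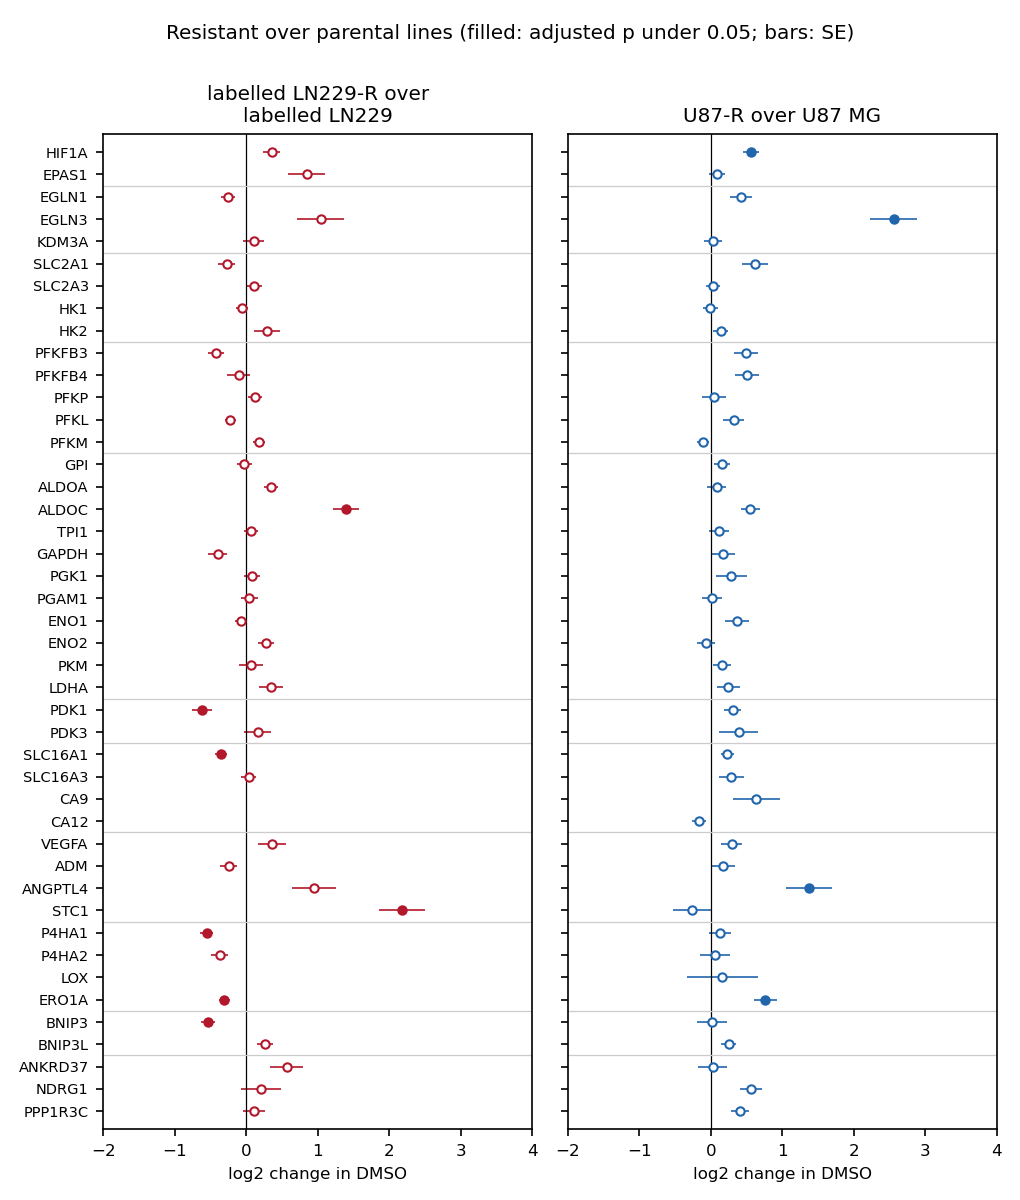
Log2 change in DMSO with its SE (horizontal) for each member (vertical, grouped by role), for libraries labelled LN229-R over those labelled LN229 (left) and U87-R over U87 MG (right); filled points passed the test. The filled points are 2 to the right and 5 to the left of 0 for LN229-R, and 4 to the right, with EGLN3 farthest, for U87-R.

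Other genes of the pathway, taken from lists of 13 HIF regulators, 24 further hypoxia targets and 22 further glycolysis and pyruvate genes, give the surroundings of the members. A few HIF regulators passed in the same direction in all 4 lines. CITED2, which competes with HIF for its coactivators, rose by 1.25 in LN229-R, 1.46 in LN229, 0.54 in U87-R and 0.86 in U87 MG (adjusted p = 0.000292, 6.13e-05, 0.0166 and 0.012). EGLN2, a further HIF hydroxylase, rose by 0.68, 0.74, 0.74 and 0.54 in the same order (adjusted p = 0.00325, 0.000135, 0.00191 and 0.0162). ELOB, elongin B of the VHL complex, fell by log2 changes of -0.73, -0.63, -0.59 and -0.50 (adjusted p = 0.00567, 0.000898, 0.0287 and 0.0204). In all, 3 of 12 regulators tested rose and 2 fell in LN229-R and likewise in LN229, 2 of 12 rose and 1 fell in U87-R, and 2 of 13 rose and 2 fell in U87 MG. Of all genes, 21.5% rose and 17.1% fell in LN229-R, 26.2% and 23.6% in LN229, 8.46% and 6.2% in U87-R, and 7.86% and 5.72% in U87 MG, and the regulators' shares in the LN229 lines were near these. EP300, a HIF coactivator, was among those that rose in LN229-R and LN229 (0.57 and 0.58, adjusted p = 0.00694 and 0.00258). HIF3A, a further alpha subunit, fell in U87 MG (-1.24, adjusted p = 0.0223). The test of the difference between backgrounds passed for CITED2 in LN229-R minus U87-R (0.71, adjusted p = 0.0141) and for VHL in LN229 minus U87 MG (-0.36, adjusted p = 0.0456).

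Among further hypoxia targets, 9 of 22 rose and 4 fell in LN229-R, and 9 of 23 rose and 4 fell in LN229, where 21.5% and 26.2% of all genes rose and 17.1% and 23.6% fell. In U87-R, 1 of 23 rose and 16 fell, and in U87 MG, 1 rose and 12 fell, where 6.2% and 5.72% of all genes fell. The tested difference in response was higher for 11 of 22 and lower for 1 in LN229-R minus U87-R (9.5% and 4.91% of all genes), and higher for 13 of 23 and lower for 1 in LN229 minus U87 MG (11.6% and 7.26%). IGFBP3, which binds insulin-like growth factors, fell in all 4, by log2 changes of -3.52 in LN229-R, -3.10 in LN229, -2.19 in U87-R and -1.94 in U87 MG (adjusted p = 0.000121, 4.31e-05, 0.00046 and 0.00115). MXI1, a partner of MAX that opposes MYC, rose by 1.81 in LN229-R and 1.66 in LN229 (adjusted p = 7.80e-05 and 7.06e-06). BHLHE40, a hypoxia-induced repressor, rose by 1.26 and 1.21 (adjusted p = 0.000217 and 2.23e-05). VLDLR, a lipoprotein receptor, rose in LN229 (1.60, adjusted p = 9.56e-06), and AK4, a mitochondrial adenylate kinase, fell in LN229-R (-1.35, adjusted p = 0.000216). In U87-R the lowest adjusted p after IGFBP3 belonged to falls of PLOD2, a lysyl hydroxylase of collagen (-1.43, adjusted p = 0.000675), GBE1, the glycogen branching enzyme (-1.14, adjusted p = 0.000795), and TMEM45A (-1.65, adjusted p = 0.000988). In U87 MG they belonged to a rise of RAB20, a small GTPase (1.18, adjusted p = 0.00115), and falls of KDM4B, a histone demethylase (-0.66, adjusted p = 0.00314), and DDIT4, an inhibitor of mTORC1 (-1.19, adjusted p = 0.0032). Differences between backgrounds passed for MXI1 and BHLHE40 in LN229-R minus U87-R (2.32 and 1.48, adjusted p = 1.69e-05 and 0.000171) and in LN229 minus U87 MG (1.70 and 1.29, adjusted p = 0.000144 and 2.80e-05).

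Among further glycolysis and pyruvate genes, 6 of 19 rose and 4 fell in LN229-R, 6 rose and 3 fell in LN229, 4 rose and 1 fell in U87-R, and 3 rose and 2 fell in U87 MG. In the LN229 lines these counts were not far from the shares of all genes, 21.5% and 26.2% of which rose and 17.1% and 23.6% fell. Of all genes, 8.46% rose and 6.2% fell in U87-R, and 7.86% rose and 5.72% fell in U87 MG. PDP1, the phosphatase that switches pyruvate dehydrogenase on, rose by 1.69 in LN229-R, 1.53 in LN229, 0.91 in U87-R and 1.05 in U87 MG (adjusted p = 0.000923, 7.06e-06, 0.0154 and 0.00608). TIGAR, which lowers fructose 2,6-bisphosphate, rose by 1.04 in LN229, 0.78 in U87-R and 0.87 in U87 MG (adjusted p = 0.000507, 0.00564 and 0.00891). HKDC1, a hexokinase relative, rose in U87-R (1.57, adjusted p = 0.00133) and in U87 MG (1.17, adjusted p = 0.00382), and MPC2, a subunit of the mitochondrial pyruvate carrier, fell in U87 MG (-0.59, adjusted p = 0.0114). BPGM, which makes 2,3-bisphosphoglycerate, rose in LN229-R (0.86, adjusted p = 0.00078) and LN229 (0.75, adjusted p = 0.000465), and its response differed between backgrounds by 0.73, adjusted p = 0.0197 for the resistant and 0.74, adjusted p = 0.0137 for the parental lines. SLC2A10, a glucose transporter, rose in LN229-R (0.95, adjusted p = 0.00167) and LN229 (0.89, adjusted p = 0.000435), and PFKFB2, a relative of PFKFB3, rose in LN229-R (1.10, adjusted p = 0.00119) and U87-R (0.63, adjusted p = 0.0177).

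Between labelled LN229-R and LN229, 0 of 12 HIF regulators tested were higher and 1 lower. Of 23 further hypoxia targets, 1 was higher and 2 lower there, and of 19 further glycolysis and pyruvate genes 1 and 1. Of all genes, 5.6% were higher and 3.65% lower. Between U87-R and U87 MG, the regulators gave 0 rises and 1 fall of 13, the hypoxia targets 2 and 0 of 23, and the glycolysis genes 0 and 0 of 19. There 3.13% of all genes rose and 1.15% fell. In libraries labelled LN229-R against LN229, ARNT2, a HIF beta subunit of the brain, was lower (-0.37, adjusted p = 0.0468), as were PYGL, a glycogen phosphorylase (-0.66, adjusted p = 0.00523), WSB1 (-0.69, adjusted p = 0.0295) and PDK4 (-0.80, adjusted p = 0.015). TMEM45A (0.68, adjusted p = 0.0231) and SLC2A10 (1.54, adjusted p = 0.000264) were higher. In U87-R against U87 MG, PYGL (1.15, adjusted p = 0.00854) and IGFBP3 (0.94, adjusted p = 0.0312) rose and HIF3A fell (-2.64, adjusted p = 0.0354).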

How the data were processed

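The deposited values are a signal, the authors' normalized counts, with every one of the 6 tables (6 libraries apiece) scaled separately. The tools that appear per the submitters' processing notes are DESeq2, Salmon (1.4.0), STAR (2.7.11a) and Trimmomatic (0.39), with the build GRCh38 and neither order nor settings. Scaling factors differ between genes, so whole reads were not recovered and tests that need counts were not used. Per the labels' protocols, U87 lines were prepared with a TruSeq Stranded mRNA kit and LN229 lines with a Watchmaker mRNA kit. Within each table, log2(value + 1) was fitted with limma 3.58.1 (R 4.3.3) and a variance trend, keeping genes whose mean reached 10, with Benjamini-Hochberg adjustment over all genes tested. Differences between effects used a joint fit of 2 tables. The fits within a table were tested on simulated data, and the joint fits of 2 tables and the replicate block were not.

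The members and lists were chosen with earlier results of these data known. Values in every library are given, per comparison, for up to 10 passing members with the lowest adjusted p and for a panel of 16 in the STM2457 comparisons. Up to 4 genes were named per other list and comparison. CA9 is not listed in the LN229 resistance table. Like-numbered libraries were taken as paired where every correlation of their deviations was over 0.1: 0.114 to 0.204 in LN229-R against LN229, 0.102 to 0.321 for STM2457 in LN229-R and 0.114 to 0.298 in U87-R. It was not so in the others, with lowest values of 0.0682 in LN229, 0.0394 in U87 MG and 0.0189 in U87-R against U87 MG. Promoter windows from RefSeq (GRCh38.p14) were matched by symbol for 38 of 44 members. Those without one are BNIP3L, NDRG1, SLC16A1, SLC2A3, STC1 and VEGFA. Also tried were an adjusted p under 0.01, the replicate block, a constant variance prior in place of the trend, libraries scaled to equal totals or upper quartiles, a filter at a mean of 50 or none, pseudocounts of 0.5 or 5, and fits with each library removed.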

Additional observations from a re-analysis of the deposited data

Results flagged for a closer look

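These results were picked out because the STM2457 response of a member differed between an LN229 line and a U87 line by a test of the difference itself.

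The log2 response in LN229-R minus U87-R differed past the threshold for 27 members, all higher in the LN229 background, by the joint limma fit without a replicate block. With the block, 37 members passed, again all higher. The values below are from the fit without it. In the HIF subunits it was 1.89 for HIF1A and 1.66 for EPAS1. The HIF feedback genes gave 1.02 for EGLN1 and 2.96 for EGLN3. Values of 2.50 for SLC2A1 and 2.29 for SLC2A3 were found for the glucose uptake genes. At the phosphofructokinase step it was 1.32 for PFKFB4. In the other glycolytic enzymes it was 0.99 for ALDOA, 2.91 for ALDOC, 1.46 for PGK1, 2.39 for ENO2 and 1.42 for LDHA. The pyruvate dehydrogenase kinases gave 1.22 for PDK3. Values of 0.50 for SLC16A1, 3.71 for SLC16A3 and 7.25 for CA9 were found for the lactate and pH genes. Among secreted factors it was 1.62 for VEGFA, 1.94 for ADM and 3.56 for STC1. In the collagen and folding enzymes it was 1.44 for P4HA1, 0.79 for P4HA2 and 1.10 for ERO1A. The mitophagy receptors gave 1.93 for BNIP3 and 1.27 for BNIP3L. Values of 1.56 for ANKRD37, 1.74 for NDRG1 and 1.71 for PPP1R3C were found for the other HIF targets. On leaving out single libraries, 22 of the 27 calls held under every removal. ALDOA lost its call without any of 5 of the 12 libraries, LDHA of 6, P4HA2 of 7, PDK3 of 8 and SLC16A1 of 9.

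The log2 response in LN229 minus U87 MG differed past the threshold for 30 members, all higher in the LN229 background, by the joint limma fit. In the HIF subunits it was 1.46 for HIF1A and 0.97 for EPAS1. The HIF feedback genes gave 0.58 for EGLN1 and 1.82 for EGLN3. Values of 2.46 for SLC2A1, 1.92 for SLC2A3 and 0.91 for HK2 were found for the glucose uptake genes. At the phosphofructokinase step it was 1.82 for PFKFB4 and 0.66 for PFKL. In the other glycolytic enzymes it was 0.96 for ALDOA, 1.85 for ALDOC, 1.31 for PGK1, 0.55 for ENO1, 1.94 for ENO2 and 1.19 for LDHA. The pyruvate dehydrogenase kinases gave 0.74 for PDK1. Values of 0.49 for SLC16A1, 3.41 for SLC16A3 and 5.76 for CA9 were found for the lactate and pH genes. Among secreted factors it was 1.48 for VEGFA, 1.58 for ADM, 1.79 for ANGPTL4 and 2.80 for STC1. In the collagen and folding enzymes it was 1.44 for P4HA1, 0.98 for P4HA2 and 0.68 for ERO1A. The mitophagy receptors gave 1.54 for BNIP3 and 0.62 for BNIP3L. Values of 1.65 for NDRG1 and 1.55 for PPP1R3C were found for the other HIF targets. Here 24 of the 30 calls held under every removal that could be fitted. PDK1 lost its call without any of 5 of the 12 libraries, EGLN1 of 6, ERO1A of 7, EPAS1 and ANGPTL4 of 8 each, and ENO1 of 10.

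Cell background, medium and library kit cannot be told apart in these differences. Which LN229 libraries are resistant was not settled. If the STM2457 tables carry swapped names, resistance and temozolomide in the medium differ within each pair as well. The fitted values of CA9 depend on the pseudocount.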

How the results depend on the processing

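No called change of a member turned direction under any alternative: over the named members, alternatives and comparisons, 6914 values kept their side of the threshold, 419 fell short of it and 105 newly passed it. The number of members called moved with the threshold, the variance model, the replicate block and single libraries. An adjusted p under 0.01 left 1 in U87-R against U87 MG, 3 in LN229-R against LN229, 11 for STM2457 in LN229-R, 19 in U87-R, 12 in U87 MG and 17 in the difference LN229-R minus U87-R. Without a variance trend there were 1 and 4 in the 2 resistance comparisons (U87, LN229), 20 for STM2457 in U87-R and 12 in U87 MG. The replicate block gave 9 in U87-R against U87 MG, 14 in LN229-R against LN229 and 37 for STM2457 in U87 MG, where 2 rose. Every library correlated best with the library of its own number in LN229-R against LN229 and in STM2457 in U87-R, U87 MG and LN229, a hint from the data and not the design. Leaving out each library gave 1 to 3 in U87-R against U87 MG, 2 to 15 in LN229-R against LN229, 13 to 20 for STM2457 in LN229-R, 18 to 22 in LN229, 18 to 35 in U87-R, 13 to 21 in U87 MG, 22 to 30 in LN229-R minus U87-R and 24 to 30 in LN229 minus U87 MG. STM2457 calls in U87 MG were 13 without STM2457 replicates 1 or 2 or DMSO replicate 2, and in U87-R they were 23 without STM2457 replicate 1 and 18 without STM2457 replicate 2. Equal totals gave 1 rise and 20 falls in U87 MG. The causes were not tested. With 3 libraries a group, changes near the threshold rest on single libraries: 13 of 24 calls in U87 MG, 18 of 36 in U87-R, 17 of 22 in LN229 and 13 of 19 in LN229-R held under every removal. Whole read depth is not known from these values.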
